A study of Mus musculus with 15 samples.

Results

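Scavenger receptors and their close relatives were examined across the blood monocytes and tissue macrophages of the mouse small intestine. The 9 genes described here are Cd163, Cd36, Msr1, Marco, Scarb1, Scarb2, Colec12, Cd5l, and Cd68. They were chosen by gene symbol, each symbol was found in the deposited counts, and they are 9 of the 19456 genes in that table. RNA was sequenced from 15 bulk libraries of sorted cells from adult male wild-type C57BL/6 mice, none of which carried an engineered allele or received a treatment according to the labels. Ly6Chi monocytes from peripheral blood gave 3 libraries. Macrophages of the small intestine gave 4 libraries from each of 3 subsets, defined by the surface proteins Tim-4 and CD4: cells with neither protein (Tim-4-CD4-), cells with CD4 only (Tim-4-CD4+), and cells with both (Tim-4+CD4+). The study compared these populations to learn how subsets defined by Tim-4 and CD4 differ from each other and from blood monocytes. Cells were pooled from 3 mice for each library and from 4 mice for monocyte replicate 2, so that no library shows a single animal. Where values of the 3 subsets follow each other below, they stand in the order given here.

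Scavenger receptors take up modified lipoproteins, bacteria, dying cells, and debris, and macrophages are the cells best known for carrying them. They share ligands more than ancestry. Class A receptors such as Msr1, Marco, and Colec12 have collagen-like stalks, class B receptors such as Cd36, Scarb1, and Scarb2 are looped through the membrane at both ends, and Cd163 and Cd5l are built from repeated cysteine-rich domains. In the gut, resident macrophages clear dying epithelial cells and bacteria that cross the epithelium, and monocytes from the blood replenish part of the population.

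Upstream sequence is shown for 4 members: Cd163, Marco, and Cd5l, whose transcripts were higher in Tim-4+CD4+ than in Tim-4-CD4- macrophages, and Cd36, whose transcripts were lower. RefSeq windows of 250 bases before to 50 bases after a transcription start, on GRCm38.p6, were given for 6 of the 9 members, which are these 4, Scarb2, and Cd68, and Msr1, Scarb1, and Colec12 were not matched. The windows lie at chr6:124304401-124304700 on the plus strand for Cd163, chr1:120504975-120505274 on the minus strand for Marco, chr3:87357631-87357930 on the plus strand for Cd5l, and chr5:17835847-17836146 on the minus strand for Cd36. The start used for Cd36 is 52905 bases from the start of the gene in GENCODE, so this window does not lie at the most upstream start of the gene. Each sequence reads 5′ to 3′ on the strand of its gene, and capitals mark matches to the motifs searched.
Cd163: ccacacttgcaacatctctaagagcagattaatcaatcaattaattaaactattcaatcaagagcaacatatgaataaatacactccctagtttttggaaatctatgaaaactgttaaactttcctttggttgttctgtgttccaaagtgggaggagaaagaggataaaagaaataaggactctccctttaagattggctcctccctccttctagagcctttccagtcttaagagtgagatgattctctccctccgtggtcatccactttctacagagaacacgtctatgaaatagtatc
Marco: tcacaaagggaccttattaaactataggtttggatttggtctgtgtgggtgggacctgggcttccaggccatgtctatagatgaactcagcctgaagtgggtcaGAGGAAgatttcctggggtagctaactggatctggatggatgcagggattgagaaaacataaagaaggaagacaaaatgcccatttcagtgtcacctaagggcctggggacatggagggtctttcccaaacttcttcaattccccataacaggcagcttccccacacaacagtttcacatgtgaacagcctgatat
Cd5l: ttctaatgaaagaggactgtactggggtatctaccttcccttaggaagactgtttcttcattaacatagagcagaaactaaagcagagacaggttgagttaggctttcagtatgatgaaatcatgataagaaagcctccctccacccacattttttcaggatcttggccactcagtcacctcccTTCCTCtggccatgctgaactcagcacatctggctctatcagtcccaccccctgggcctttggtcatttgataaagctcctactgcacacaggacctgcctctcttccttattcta
Cd36: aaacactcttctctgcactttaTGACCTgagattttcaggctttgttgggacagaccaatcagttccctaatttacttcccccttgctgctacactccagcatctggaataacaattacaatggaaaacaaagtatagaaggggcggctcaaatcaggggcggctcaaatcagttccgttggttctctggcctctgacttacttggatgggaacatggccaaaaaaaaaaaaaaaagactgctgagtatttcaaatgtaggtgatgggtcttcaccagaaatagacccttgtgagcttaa
The letters searched on both strands were GAGGAA, the core bound by the myeloid factor PU.1, AGGTCA, known as a half-site of nuclear receptors, CACGTG, known as an E-box, and TATAAA, the core of the TATA box. No pair of these motifs overlapped in the matches below. The PU.1 core was found in Marco at -146 to -141 from the start, on the strand of the gene, and in Cd5l at -66 to -61, on the other strand, where it reads TTCCTC. The Cd68 window held it at -225 to -220 and at 29 to 34. Of 32851 promoters of the same length, 28.3% held the PU.1 core. The half-site of nuclear receptors was found in Cd36 at -228 to -223 on the other strand, where it reads TGACCT, and 16.3% of all promoters held it. The windows of Cd163 and Scarb2 held none of the 4 motifs, and no window of the 6 held the E-box or the TATA core, which were found in 7.15% and 13.6% of all promoters.

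Libraries held between 39388763 and 151510641 counts on genes (median 63249039). Values are given as CPM, reads per 1000000 counts after scaling each library by its total and its TMM factor. Tests are edgeR's quasi-likelihood tests in a single fit over the 15 libraries, adjusted over the 15802 genes that passed a filter on low counts, and a gene was called at an adjusted p under 0.05. The transcripts of the sorting proteins matched the labels. Timd4 reached 336 to 390 CPM in Tim-4+CD4+ libraries and at most 4.47 CPM elsewhere, and Cd4 reached 484 to 924 CPM in the CD4+ subsets and at most 39.2 CPM elsewhere. Ly6c2 reached 820 to 1545 CPM in monocytes and at most 3.46 CPM in macrophages. In bulk libraries, more cells with a transcript and more transcript per cell cannot be told apart.

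Most of the 9 genes distinguished macrophages from blood monocytes, as did most genes measured. In Tim-4-CD4- macrophages 3 members were higher and 2 were lower than in monocytes, where 65.4% of all genes tested were called (37.3% higher and 28.1% lower). In Tim-4-CD4+ macrophages 6 were higher and 2 lower, beside 69.8% of all genes (39.1% higher and 30.7% lower). In Tim-4+CD4+ macrophages 6 were higher and 1 was lower, beside 70.9% (39.5% higher and 31.3% lower). The members called were 55.6%, 88.9%, and 77.8% of the 9, which with so many genes called is not a result about these genes.
Between macrophage subsets fewer genes were called. Tim-4-CD4+ cells differed from Tim-4-CD4- cells in 3 members (Msr1 and Scarb1 higher, Cd36 lower), beside 10.1% of all genes (4.52% higher and 5.53% lower). Tim-4+CD4+ cells differed from Tim-4-CD4+ cells in 2 members (Cd163 and Marco, both higher), beside 3.41% of all genes (2.07% higher and 1.34% lower). In Tim-4+CD4+ cells against Tim-4-CD4- cells, Cd163, Msr1, Marco, Scarb1, Colec12, and Cd5l were higher and Cd36 was lower, beside 23.1% of all genes (11.3% higher and 11.9% lower). The median log2 fold change of the 9 members in that comparison was 0.81, where the median over all genes was -0.0047. These comparisons share libraries and are not independent of each other. All 9 genes passed the filter, but Marco reached its minimum of 0.158 CPM in no monocyte or Tim-4-CD4- library, in 1 Tim-4-CD4+ library, and in all 4 Tim-4+CD4+ libraries. Cd5l reached it in no monocyte library and in 1, 3, and 4 libraries of the subsets. Marco thus entered the test through Tim-4+CD4+ cells, where it is high, and its place in the counts above is no support for them. Over the other 8 members, 1 was higher in Tim-4+CD4+ than in Tim-4-CD4+ cells. Against Tim-4-CD4- cells 5 of these 8 were higher and 1 was lower in Tim-4+CD4+ cells, with a median log2 fold change of 0.66. Cd5l is among these 5 and passed the filter mostly through the CD4+ subsets, so its place in this count and median is no support either. Against monocytes 5 of the 8 were higher and 2 lower in Tim-4-CD4+ cells, and 5 higher and 1 lower in Tim-4+CD4+ cells. Both counts of 5 include Cd5l, which is no support for them.

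**Figure D1:**
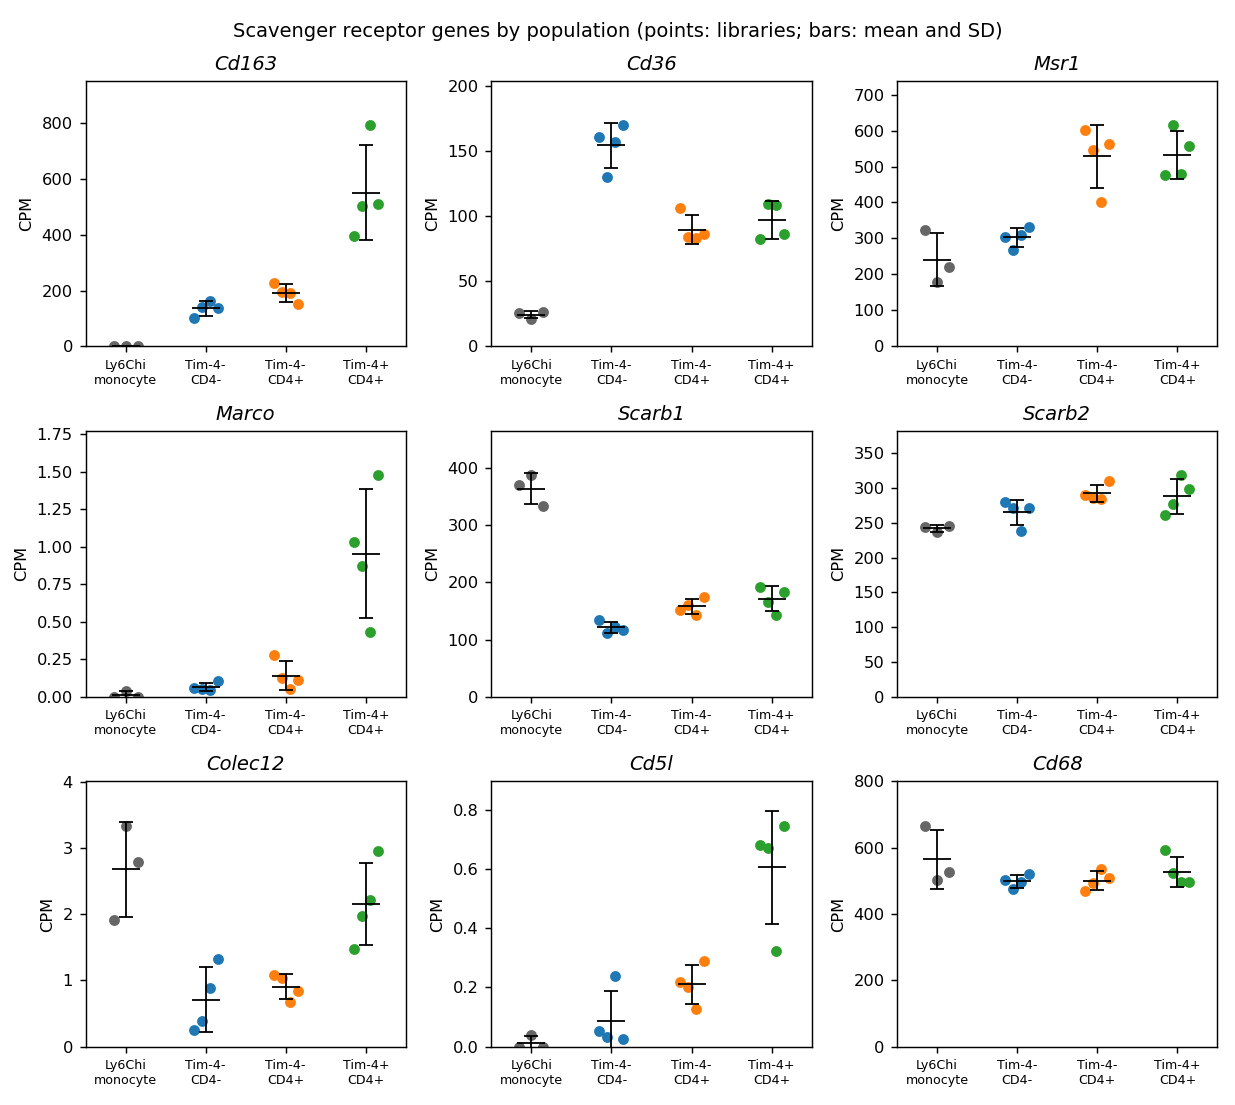
CPM of each of the 9 genes (y axis, linear, from 0) in the 4 populations (x axis), with 1 point per library and black bars for the mean and SD (n = 3 monocyte libraries and 4 libraries of each subset). Cd163 is highest in the 4 Tim-4+CD4+ libraries, Cd36 in the 4 Tim-4-CD4- libraries, and Scarb1 in the 3 monocyte libraries, while Cd68 overlaps among all populations.

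Cd163 (ENSMUSG00000008845.9, chromosome 6, 124304656 to 124330527, plus strand), the receptor that removes complexes of hemoglobin and haptoglobin, showed the widest span of the abundant members. Monocyte libraries held 1.95, 2.12, and 2.55 CPM. Tim-4-CD4- libraries held 101, 142, 163, and 139 CPM, Tim-4-CD4+ libraries 229, 194, 190.0, and 152 CPM, and Tim-4+CD4+ libraries 397, 505, 793, and 513 CPM. Every macrophage library thus lay far above every monocyte library, every Tim-4+CD4+ library lay above the other subsets, and the ranges of both subsets without Tim-4 overlapped.
Cd163 was 253-fold higher in Tim-4+CD4+ macrophages than in monocytes (log2 fold change 7.98 ± 0.29 [SE], adjusted p = 3.4e-13). It was 62.6-fold higher in Tim-4-CD4- macrophages than in monocytes and 87.6-fold higher in Tim-4-CD4+ macrophages than in monocytes (adjusted p = 6.8e-12 and 2.5e-12).
Among macrophages, Tim-4+CD4+ cells had 4.04 times the level of Tim-4-CD4- cells (log2 fold change 2.01 ± 0.19, adjusted p = 1.1e-06). They had 2.89 times the level of Tim-4-CD4+ cells (log2 fold change 1.53 ± 0.19, adjusted p = 9.6e-05). The difference of Tim-4-CD4+ cells from Tim-4-CD4- cells, 0.48 ± 0.19 on the log2 scale, did not pass (adjusted p = 0.12). It passed without Tim-4+CD4+ replicate 3, the library with the highest Cd163 (adjusted p = 0.048), and its adjusted p ranged from 0.021 to 0.29 over all alternatives. No alternative blocked on sorts shared between subsets, which the labels do not give.

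Cd36 (ENSMUSG00000002944.15, chromosome 5, 17781690 to 17888801, minus strand), a class B receptor for oxidized lipoproteins, long-chain fatty acids, and dying cells, had another order. Monocyte libraries held 25.9, 21.1, and 26.1 CPM. Tim-4-CD4- libraries held 161, 129.7, 157, and 169.6 CPM, above every other library of the study. Tim-4-CD4+ libraries held 106, 83.7, 83.1, and 85.9 CPM and Tim-4+CD4+ libraries 82.4, 109.6, 109, and 86.6 CPM, and these 2 ranges overlapped.
Cd36 was higher in macrophages than in monocytes, 6.33-fold in Tim-4-CD4- cells (log2 fold change 2.66 ± 0.15, adjusted p = 7.4e-11). The rise was 3.68-fold in Tim-4-CD4+ cells and 3.98-fold in Tim-4+CD4+ cells (adjusted p = 3.6e-09 and 1.7e-09). It was 1.72-fold higher in Tim-4-CD4- than in Tim-4-CD4+ macrophages, where the log2 fold change of Tim-4-CD4+ over Tim-4-CD4- cells was -0.78 ± 0.12 (adjusted p = 0.00051). It was 1.59-fold higher in Tim-4-CD4- than in Tim-4+CD4+ macrophages, with a log2 fold change of -0.67 ± 0.12 for Tim-4+CD4+ over Tim-4-CD4- cells (adjusted p = 0.00069). The subsets with CD4 differed by 0.11 on the log2 scale (approximate 95% interval -0.13 to 0.35, adjusted p = 0.71).
Cd36 was the only member called lower in Tim-4+CD4+ than in Tim-4-CD4- macrophages, and Cd163 and Cd36 therefore separated the libraries when read together. The ratio of Cd163 to Cd36 CPM ran from 0.0753 to 0.101 in monocytes, and in the subsets from 0.632 to 1.10, from 1.77 to 2.31, and from 4.61 to 7.29. No population overlapped another in this ratio, which was chosen after the values were seen and is a description without a test.

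**Figure D2:**
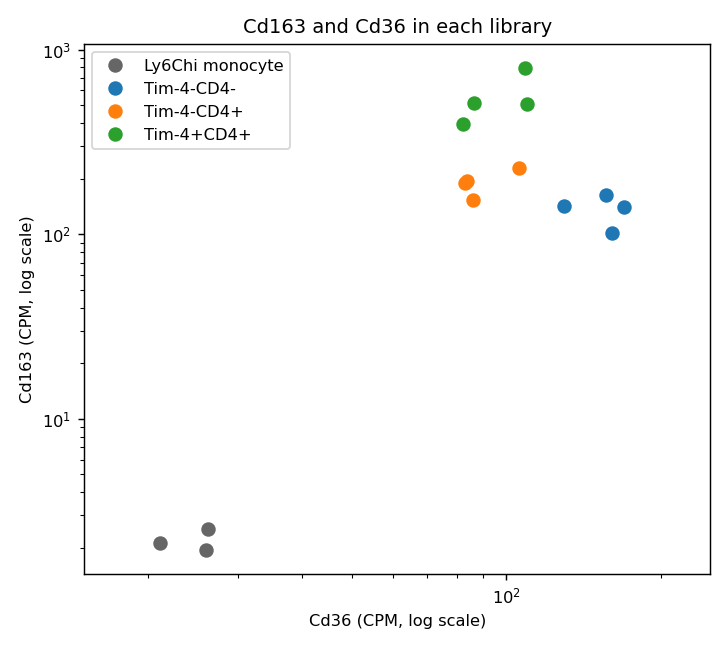
Cd163 CPM (y axis) against Cd36 CPM (x axis), both on log scales, with 1 point per library colored by population. The 3 monocyte libraries lie at the lower left, the 4 Tim-4-CD4- libraries at the highest Cd36, and the 4 Tim-4+CD4+ libraries at the highest Cd163, between 397 and 793 CPM.

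Scarb1 (ENSMUSG00000037936.15, chromosome 5, 125277087 to 125341094, minus strand), the high-density lipoprotein receptor that moves cholesterol esters, ran opposite to Cd36 in the comparison with blood. Monocyte libraries held 371, 387, and 335 CPM. Tim-4-CD4- libraries held 135, 112, 122, and 116 CPM, Tim-4-CD4+ libraries 152, 161, 144, and 175 CPM, and Tim-4+CD4+ libraries 193, 165, 144, and 184 CPM. Every monocyte library was above every macrophage library, every Tim-4-CD4- library was below those of the other subsets, and the 2 CD4+ subsets overlapped.
Scarb1 was 3.01-fold higher in monocytes than in Tim-4-CD4- cells, where the log2 fold change of macrophages over monocytes was -1.59 ± 0.11 (adjusted p = 1.5e-09). It was 2.31-fold higher in monocytes than in Tim-4-CD4+ cells and 2.13-fold higher than in Tim-4+CD4+ cells (adjusted p = 3.9e-08 and 1.3e-07). Tim-4+CD4+ cells exceeded Tim-4-CD4- cells by 0.50 ± 0.10 on the log2 scale (adjusted p = 0.0016). Tim-4-CD4+ cells exceeded Tim-4-CD4- cells by 0.38 ± 0.10 (adjusted p = 0.023). That call was lost without Tim-4-CD4- replicate 2, 3, or 4 (adjusted p = 0.072, 0.060, and 0.070) and without Tim-4-CD4+ replicate 2 or 4 (adjusted p = 0.062 and 0.095). The annotated transcript Gm42633 overlaps Scarb1 on the same strand and held 100 reads in all 15 libraries together.
Scarb2 (ENSMUSG00000029426.8, chromosome 5, 92441314 to 92506833, minus strand), known as LIMP-2, is a membrane protein of lysosomes. Its levels were close to each other, with 244, 237, and 245 CPM in monocyte libraries and 279.5, 271, 238, and 272 CPM in Tim-4-CD4- libraries. Tim-4-CD4+ libraries held 289, 285, 285, and 309.8 CPM and Tim-4+CD4+ libraries 261, 277, 318, and 298 CPM. Every library of the CD4+ subsets was above every monocyte library, and the macrophage subsets overlapped except that Tim-4-CD4+ libraries lay above Tim-4-CD4- libraries. It was 1.21-fold higher in Tim-4-CD4+ cells and 1.19-fold higher in Tim-4+CD4+ cells than in monocytes (adjusted p = 0.01 and 0.015), and no comparison between subsets was called. The difference of Tim-4+CD4+ cells from Tim-4-CD4- cells was 0.12 on the log2 scale (approximate 95% interval -0.03 to 0.28).

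Msr1 (ENSMUSG00000025044.16, chromosome 8, 39581685 to 39642673, minus strand), the class A receptor SR-A1 for acetylated lipoprotein and bacterial ligands, divided the CD4+ subsets from the other populations. Monocyte libraries held 323, 179.8, and 220.3 CPM and Tim-4-CD4- libraries 304, 269, 310.1, and 331 CPM, and these ranges overlapped. Tim-4-CD4+ libraries held 603, 546, 402, and 562 CPM and Tim-4+CD4+ libraries 476, 615, 479.8, and 558 CPM, all above the libraries of the other populations.
Msr1 was 1.74-fold higher in Tim-4-CD4+ than in Tim-4-CD4- macrophages (log2 fold change 0.80 ± 0.16, adjusted p = 0.0037). It was 1.75-fold higher in Tim-4+CD4+ than in Tim-4-CD4- macrophages (log2 fold change 0.81 ± 0.16, adjusted p = 0.0014). Between the CD4+ subsets the log2 difference was 0.01 (approximate 95% interval -0.30 to 0.32, adjusted p = 0.99). Against monocytes the log2 fold change was 1.13 ± 0.18 in Tim-4-CD4+ cells and 1.14 ± 0.18 for Tim-4+CD4+ cells (adjusted p = 2.9e-05 and 2.5e-05). In Tim-4-CD4- cells it was 0.33 ± 0.17, which was not called (adjusted p = 0.1). Without monocyte replicate 1, the highest of the monocyte libraries, that value was 0.62 and was called (adjusted p = 0.0029), and with upper-quartile normalization the adjusted p was 0.047.

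Marco (ENSMUSG00000026390.7, chromosome 1, 120474538 to 120505024, minus strand), a class A receptor for unopsonized bacteria and particles, did not exceed 1.48 CPM in any library. Monocyte libraries held 0, 0.0389, and 0 CPM and Tim-4-CD4- libraries 0.0548, 0.0503, 0.0431, and 0.104 CPM. Tim-4-CD4+ libraries held 0.275, 0.126, 0.0511, and 0.108 CPM and Tim-4+CD4+ libraries 1.03, 0.869, 0.434, and 1.48 CPM. Every Tim-4+CD4+ library lay above every other library.
The summed counts were 4 in monocytes, all in replicate 2, and 12, 40, and 323 in the macrophage subsets. Pooled over libraries these are 0.0134 CPM (exact Poisson 95% interval 0.00366 to 0.0344), 0.0602 CPM (0.0311 to 0.105), 0.125 CPM (0.0892 to 0.170), and 0.946 CPM (0.846 to 1.06). These intervals cover counting error only.
Marco was 15.1-fold higher in Tim-4+CD4+ than in Tim-4-CD4- macrophages (log2 fold change 3.92 ± 0.73, adjusted p = 0.00079). It was 6.91-fold higher than in Tim-4-CD4+ macrophages (log2 fold change 2.79 ± 0.65, adjusted p = 0.023). Because Marco passed the filter on low counts through Tim-4+CD4+ libraries, it was also tested with no filter, where both calls held (adjusted p = 0.00066 and 0.023). The call against Tim-4-CD4+ cells was lost without Tim-4-CD4+ replicate 2, 3, or 4 (adjusted p = 0.067, 0.067, and 0.083) and without Tim-4+CD4+ replicate 4 (adjusted p = 0.086). Marco was also called above monocytes in both CD4+ subsets (adjusted p = 0.0054 and 2.2e-05) and not in Tim-4-CD4- cells (adjusted p = 0.076). With 4 monocyte reads in 1 library, no fold against monocytes is given. Without monocyte replicate 2 the fitted log2 value rose from 5.96 to 9.18 in Tim-4+CD4+ and from 3.17 to 6.38 in Tim-4-CD4+ cells, and Tim-4-CD4- cells were called as well (adjusted p = 0.0039). Without monocyte replicate 1 the same values were 5.27 and 2.48.

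Colec12 (ENSMUSG00000036103.8, chromosome 18, 9707595 to 9882644, plus strand), a class A receptor with a lectin domain that is also known from vascular endothelium, was low throughout and higher at both ends of the range of populations than in between. Monocyte libraries held 1.91, 3.34, and 2.79 CPM and Tim-4+CD4+ libraries 1.48, 1.97, 2.22, and 2.95 CPM, and these overlapped. Tim-4-CD4- libraries held 0.256, 0.385, 0.884, and 1.32 CPM and Tim-4-CD4+ libraries 1.08, 1.04, 0.678, and 0.837 CPM, below every monocyte and every Tim-4+CD4+ library. It was 3.82-fold higher in monocytes than in Tim-4-CD4- macrophages (adjusted p = 0.00086) and 2.96-fold higher than in Tim-4-CD4+ macrophages (adjusted p = 0.0034). Between Tim-4+CD4+ cells and monocytes the log2 fold change was -0.32 (approximate 95% interval -1.12 to 0.49, adjusted p = 0.51).
Among macrophages Colec12 was 3.07-fold higher in Tim-4+CD4+ than in Tim-4-CD4- cells (log2 fold change 1.62 ± 0.41, adjusted p = 0.0082). The difference from Tim-4-CD4+ cells, 1.25 ± 0.40 on the log2 scale, was not called (adjusted p = 0.12), although DESeq2 called it (adjusted p = 0.019), as did a fit of the 2 subsets alone (adjusted p = 0.032).

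Cd5l (ENSMUSG00000015854.7, chromosome 3, 87357881 to 87371073, plus strand), the secreted protein AIM that resident macrophages of several organs produce, was as low as Marco. Monocyte libraries held 0, 0.0389, and 0 CPM and Tim-4-CD4- libraries 0.0548, 0.0335, 0.237, and 0.0259 CPM. Tim-4-CD4+ libraries held 0.22, 0.202, 0.128, and 0.29 CPM and Tim-4+CD4+ libraries 0.681, 0.671, 0.322, and 0.746 CPM. Every Tim-4+CD4+ library was above every other library, and the other macrophage subsets overlapped through Tim-4-CD4- replicate 3.
The summed counts were 4, again all in monocyte replicate 2, and 17, 73, and 213 in the macrophage subsets. Pooled levels were 0.0134 CPM (exact Poisson 95% interval 0.00366 to 0.0344), 0.0852 CPM (0.0496 to 0.136), 0.228 CPM (0.179 to 0.286), and 0.624 CPM (0.543 to 0.713). Cd5l was 6.86-fold higher in Tim-4+CD4+ than in Tim-4-CD4- macrophages (log2 fold change 2.78 ± 0.74, adjusted p = 0.012). Without Tim-4-CD4- replicate 3 this value was 3.92 (adjusted p = 0.0025). The adjacent subsets were not called, with log2 values of 1.27 ± 0.74 for Tim-4-CD4+ over Tim-4-CD4- cells and 1.51 ± 0.67 for Tim-4+CD4+ over Tim-4-CD4+ cells (adjusted p = 0.34 and 0.3).
Against monocytes Cd5l was called in each of the 3 subsets (adjusted p = 0.036, 0.0022, and 0.00013). The first of these calls was lost without monocyte replicate 1 or 3 (adjusted p = 0.13 and 0.088) and without Tim-4-CD4- replicate 3 (adjusted p = 0.23). Without monocyte replicate 2, which left the monocytes with no read, the fitted log2 values of the 3 subsets rose from 2.53, 3.80, and 5.31 to 5.74, 7.01, and 8.53. Without monocyte replicate 1 the same values were 1.85, 3.12, and 4.64.

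Cd68 (ENSMUSG00000018774.13, chromosome 11, 69664213 to 69666153, minus strand), the macrosialin of late endosomes and lysosomes that is used as a pan-macrophage marker, was as abundant in blood monocytes as in the gut. Monocyte libraries held 667, 502, and 526 CPM and Tim-4-CD4- libraries 502, 475, 496, and 522 CPM. Tim-4-CD4+ libraries held 468, 493, 535, and 508 CPM and Tim-4+CD4+ libraries 593, 524, 498, and 497 CPM, so all 4 ranges overlapped. None of the 6 comparisons was called for Cd68 by edgeR, and none had an unadjusted p under 0.05 or was called by DESeq2. The approximate 95% interval of the log2 fold change was -0.38 to 0.02 for Tim-4-CD4- cells over monocytes and -0.10 to 0.27 for Tim-4+CD4+ over Tim-4-CD4- cells.

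**Figure D3:**
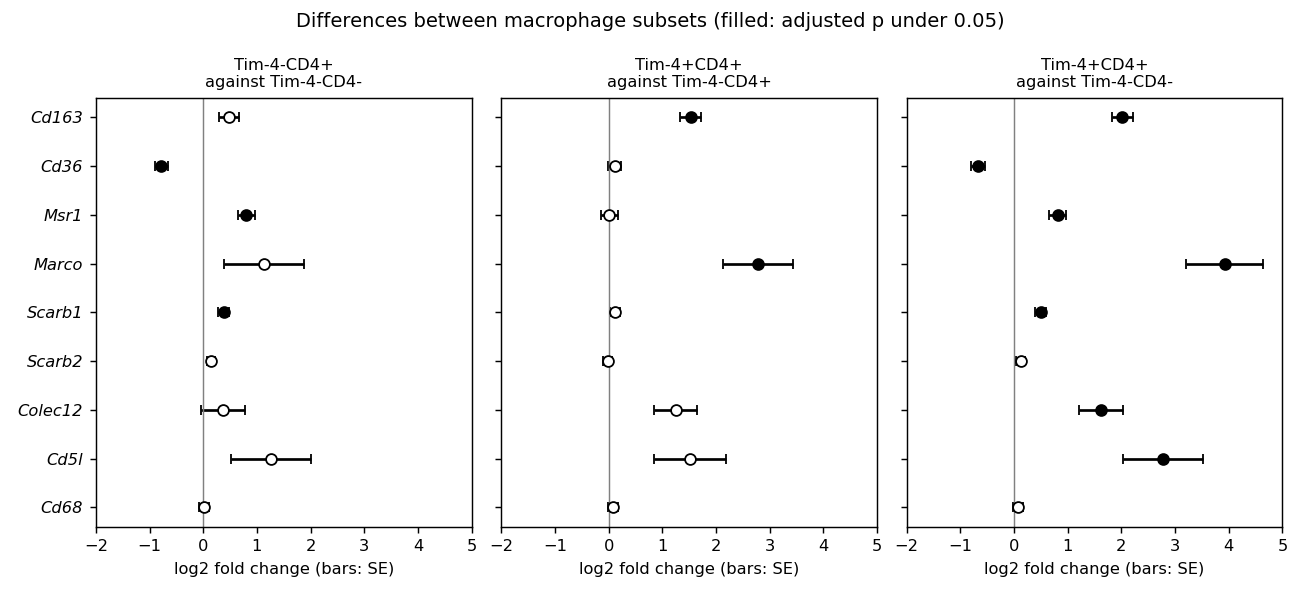
Log2 fold changes of the 9 genes (y axis) in the 3 comparisons of macrophage subsets (x axis, log2 scale, bars for the SE from edgeR), with filled points for an adjusted p under 0.05. Marco and Cd163 are filled for Tim-4+CD4+ against Tim-4-CD4+ cells, and Cd36 is the filled point below 0 for both comparisons with Tim-4-CD4- cells.

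Levels were compared between genes only after division by exon length. On this scale Cd68 was the highest of the 9 in every population, with 449 ± 70.8 CPM per kb in monocytes (mean ± SD, n = 3) and 397 ± 15.4, 399 ± 22.2, and 420.0 ± 35.9 CPM per kb in the macrophage subsets (n = 4 each). It made up 78.0% of the summed per-length level of the 9 genes in monocytes and 60.1% in Tim-4+CD4+ macrophages. Cd163 moved from rank 6 of 9 in monocytes, at 0.404 ± 0.0563 CPM per kb, to rank 5 in Tim-4-CD4-, rank 4 in Tim-4-CD4+, and rank 2 in Tim-4+CD4+ macrophages, at 101 CPM per kb (SD 31.002, n = 4). Its share of the sum was 0.0701% in monocytes and 14.5% in Tim-4+CD4+ macrophages. In Tim-4+CD4+ macrophages Cd163 and Msr1 (83.8 ± 10.5 CPM per kb) lay within their spread of each other. In monocytes Scarb1, Scarb2, and Msr1 lay together, at 42.9 ± 3.18, 38.5 ± 0.744, and 38.0 ± 11.6 CPM per kb. Marco, Colec12, and Cd5l were at most 0.495 CPM per kb in all 4 populations, at percentiles of 30.6 or lower among all genes.

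**Figure D4:**
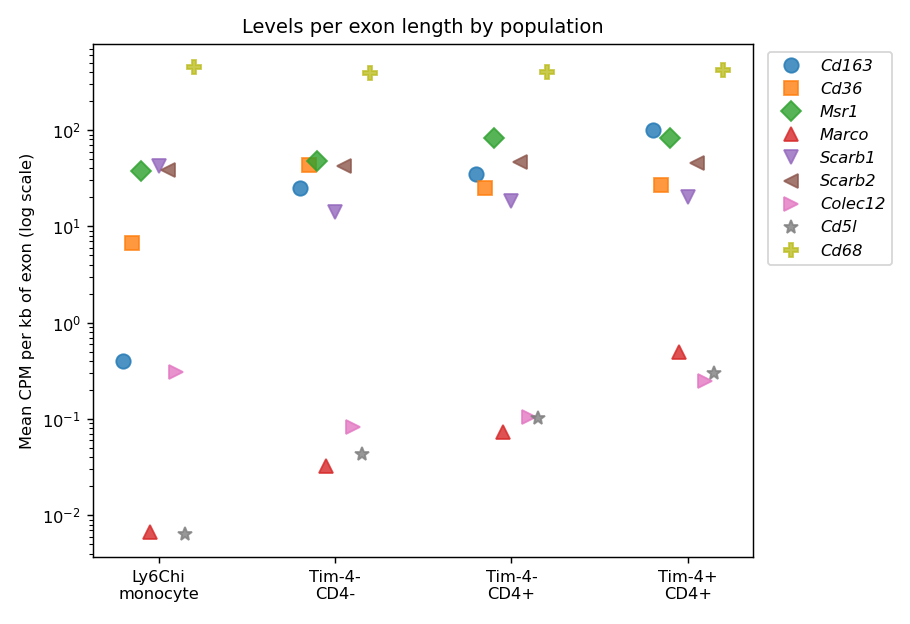
Mean CPM per kb of exon (y axis, log scale) for each of the 9 genes in the 4 populations (x axis), with points spread sideways for legibility. Cd68 lies between 397 and 449 CPM per kb, Cd163 runs from 0.404 to 101 CPM per kb, and Marco, Colec12, and Cd5l do not exceed 0.495 CPM per kb.

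Whether the change between the subsets without Tim-4 and the change between the subsets with CD4 differed was tested directly in the same fit. The test is of the signed second change minus the first, not of their sizes. For Cd36 the first change was -0.78 and the second was 0.11. edgeR called no member, and 0.702% of all genes (111 of 15802). Cd36, Cd163, and Msr1 had an unadjusted p under 0.05, beside 1572 of all 15802 genes tested. The second change minus the first was 0.89 ± 0.21 on the log2 scale for Cd36 (adjusted p = 0.079), 1.05 ± 0.33 for Cd163 (adjusted p = 0.25), and -0.79 ± 0.27 for Msr1 (adjusted p = 0.30). DESeq2 called Cd36 (adjusted p = 0.0080) and not Cd163 (adjusted p = 0.077), and called 310 of all genes where edgeR called 111. This test was added after the values were seen.

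For each member with a mean of at least 1 CPM over the 12 macrophage libraries, the genes with the most similar pattern were found by Pearson's r of log2 CPM over those libraries, among 11789 genes. These libraries share 3 subsets, so the values describe the pattern and carry no test. Nearest to Cd163 were Cdc42bpa (r = 0.973), Ppp1r9a (0.967), and Fer (0.964). The mean levels of Ppp1r9a were 6.13, 11.9, and 40.5 CPM in the 3 subsets. Nearest to Cd36 were Ola1 (0.954), Eps8 (0.946), and Map3k20 (0.934). Eps8 was 111 CPM in monocytes, 57.7 CPM in Tim-4-CD4- cells, and 36.1 and 33.0 CPM in the CD4+ subsets, so that it followed Cd36 among macrophages while monocytes held the most.
Nearest to Msr1 were Hpgds (0.978), the hematopoietic prostaglandin D synthase, Abcg3 (0.977), and B3galnt1 (0.973). Hpgds was 0.155 CPM in monocytes, 161 CPM in Tim-4-CD4- cells, and 281 and 296 CPM in the CD4+ subsets. Nearest to Scarb1 were Itgax (0.976), which encodes the integrin CD11c, Sema4c (0.965), and Cwc25 (0.965). Itgax was 16.6 CPM in monocytes against 689.9, 978, and 1073 CPM in the 3 subsets, whereas Scarb1 was highest in monocytes. Nearest to Colec12 were Ric3 (0.954), Bcl7a (0.924), and Ggct (0.921). Scarb2 lay nearest to Serac1 (0.930), Tom1l2 (0.914), and Eml6 (0.914), and Cd68 to Gm5617 (0.933), Slc25a10 (0.922), and Hacl1 (0.892).

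Of 22 other scavenger receptor genes on the list, 21 were in the table and 19 were tested. Against monocytes 14 were higher and 4 lower in Tim-4-CD4- cells, 14 higher and 4 lower in Tim-4-CD4+ cells, and 14 higher and 5 lower in Tim-4+CD4+ cells. Of all genes tested, 37.3%, 39.1%, and 39.5% were higher and 28.1%, 30.7%, and 31.3% lower in the same order. Among the higher genes, Scara3, Scara5, Stab2, and Dmbt1 held no read in any monocyte library. Cd163l1, Ssc5d, Cd5, and Cd6 held at most 0.0929 CPM there. These genes passed the filter on low counts only through macrophages, where they are high, so their place in these counts is no support for them. In Tim-4+CD4+ cells against Tim-4-CD4- cells 5 were higher and 4 lower, beside 11.3% and 11.9% of all genes, and the median log2 fold change of the list was 0.25. The list moved both ways between these subsets, as the plot of its fold changes shows. Between the other pairs of subsets 5 were higher and 2 lower in Tim-4-CD4+ than in Tim-4-CD4- cells, beside 4.52% and 5.53% of all genes, and 1 was higher and 2 lower in Tim-4+CD4+ than in Tim-4-CD4+ cells, beside 2.07% and 1.34%.
Stab2, a receptor for hyaluronan, held no read in any monocyte library and 0.745 ± 0.378, 2.07 ± 0.873, and 10.7 ± 4.35 CPM in the 3 subsets (mean ± SD, n = 4 each). It was the list's largest rise in Tim-4+CD4+ cells against Tim-4-CD4- cells (log2 fold change 3.82 ± 0.40, adjusted p = 7e-06). Olr1, the lectin-like receptor for oxidized lipoprotein, fell from 2.64 ± 1.05 to 0.224 ± 0.0689 CPM (log2 fold change -3.53 ± 0.37, adjusted p = 3e-06). Cd5, a lymphocyte receptor with the same cysteine-rich domains as Cd163, was 0.184 ± 0.127 and 0.798 ± 0.0612 CPM (log2 fold change 2.10 ± 0.48, adjusted p = 0.0040). The summed level of the 8 T cell markers was 3.21 to 6.70 CPM in Tim-4-CD4- and 5.76 to 9.12 CPM in Tim-4+CD4+ libraries, and its part in the Cd5 difference was not tested.

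**Figure D5:**
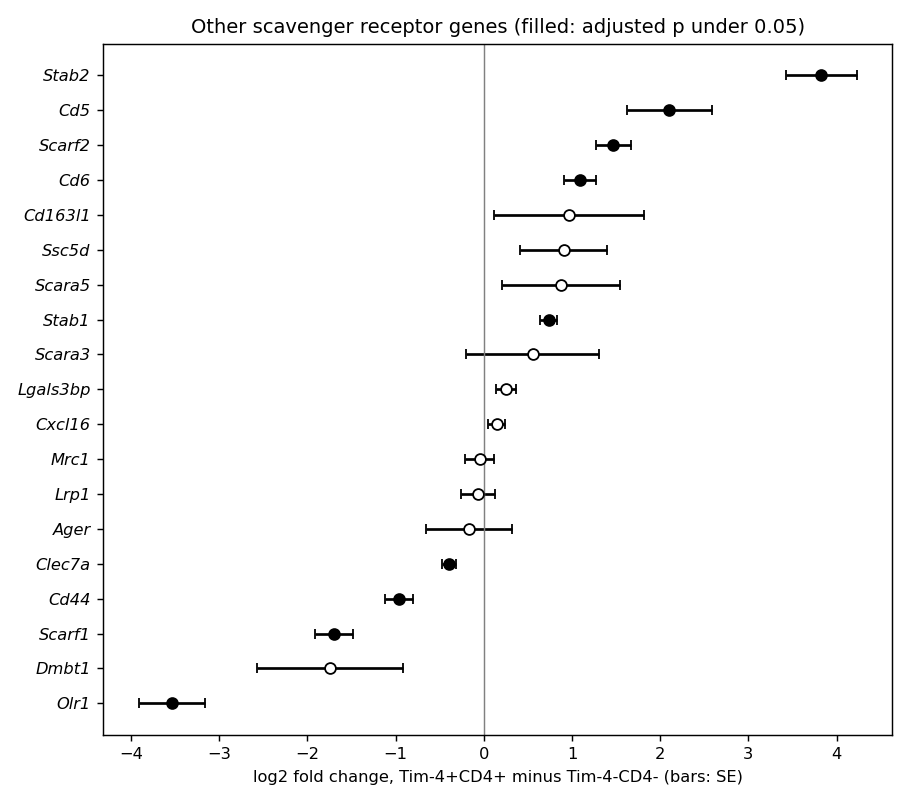
Log2 fold change of Tim-4+CD4+ over Tim-4-CD4- macrophages (x axis, bars for the SE from edgeR) for the 19 tested genes on the list of other scavenger receptors (y axis), with filled points for an adjusted p under 0.05. Stab2 lies at 3.82 and Olr1 at -3.53, with 5 filled points above 0 and 4 below.

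The genes that work with these receptors were read from 5 further lists in the comparison of Tim-4+CD4+ with Tim-4-CD4- macrophages, beside the 11.3% higher and 11.9% lower among all genes. Of 12 genes for partners and signaling of CD36, 3 were higher and 2 lower. Fyn, a kinase downstream of CD36, was 56.6 ± 6.30 CPM against 22.2 ± 3.94 CPM (log2 fold change 1.35 ± 0.12, adjusted p = 5.2e-07). Tlr2, a bacterial lipopeptide receptor that uses CD36 as a co-receptor, was lower in Tim-4+CD4+ cells, as Cd36 itself was, at 40.8 ± 4.16 against 95.3 ± 5.87 CPM (log2 fold change -1.22 ± 0.09, adjusted p = 9.7e-08). Cd9, a tetraspanin found with CD36, was higher (log2 fold change 0.57 ± 0.08, adjusted p = 5.4e-05).
Of 14 genes of lipid loading and efflux, 4 were higher and 1 lower. The lower gene was Lpl, the lipase that frees fatty acids from lipoproteins, at 24.4 ± 3.69 against 61.3 ± 12.1 CPM (log2 fold change -1.32 ± 0.17, adjusted p = 2e-05). Dgat1 and Nceh1, which build triglyceride and split cholesterol esters, were each 0.57 higher on the log2 scale (adjusted p = 0.012 and 0.00036).
Of 12 genes of hemoglobin and heme handling, 4 were higher and 1 lower. Slc40a1, the iron exporter ferroportin, was 218 ± 10.6 CPM in Tim-4+CD4+ and 27.1 ± 2.83 CPM in Tim-4-CD4- cells (log2 fold change 3.01 ± 0.13, adjusted p = 3.5e-10), in the direction of Cd163. Blvrb, a biliverdin reductase, was higher as well (log2 fold change 0.67 ± 0.14, adjusted p = 0.0021). Hp, the haptoglobin whose complexes Cd163 binds, was 976 ± 178 CPM in monocytes (n = 3), 1.74 ± 0.144 CPM in Tim-4-CD4- cells, and 0.279 ± 0.0198 CPM in Tim-4+CD4+ cells, opposite to Cd163 (log2 fold change of Tim-4+CD4+ over Tim-4-CD4- cells -2.64 ± 0.55, adjusted p = 0.0022).
Of 10 genes of lysosomal membrane and cargo, 9 were tested, 3 were higher, and none was lower. Cd63, a tetraspanin of late endosomes, was 322 ± 77.5 against 90.9 ± 8.21 CPM (log2 fold change 1.83 ± 0.19, adjusted p = 1.9e-06). Mcoln1, a lysosomal ion channel, was 0.46 ± 0.10 higher on the log2 scale (adjusted p = 0.0020).
Of 14 transcription factors known to act on members, 3 were higher and none was lower. Rxra, the partner of several lipid-sensing nuclear receptors, was 1.05 ± 0.10 higher on the log2 scale (adjusted p = 7.5e-07). Spic, a factor of heme-handling macrophages, was 0.78 ± 0.19 higher (adjusted p = 0.0061), and Nr1h3, which encodes the oxysterol receptor LXRα, was 0.55 ± 0.15 higher (adjusted p = 0.013). Pparg, a known inducer of Cd36, was 9.22 ± 0.780 CPM in monocytes and 17.6 ± 1.88, 17.7 ± 2.19, and 17.1 ± 2.23 CPM in the 3 subsets. Its values are given because of its link to Cd36, chosen after they were seen.

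Several members are also expressed by cells other than monocytes and macrophages, so marker genes of those cells were read in each library. The summed level of 12 endothelial markers was 67.6 to 110.4 CPM in monocytes, 132 to 177 CPM in Tim-4-CD4-, 203 to 249 CPM in Tim-4-CD4+, and 371 to 438 CPM in Tim-4+CD4+ libraries. It thus moved in the direction of Cd163, Marco, Cd5l, and Stab2, and in that of Colec12 when Tim-4+CD4+ cells are set against Tim-4-CD4- cells, though not against monocytes. Pecam1, which leukocytes also express, led this sum in the macrophages, with 275 to 335 CPM in Tim-4+CD4+ libraries, and Lyve1 reached 17.7 to 37.2 CPM there against 5.11 to 14.5 CPM in Tim-4-CD4- libraries. Flt1 did not move with the sum. It was 52.0 to 87.0 CPM in monocytes, 2.59 to 9.89 CPM in Tim-4-CD4-, and 2.16 to 4.47 CPM in Tim-4+CD4+ libraries. The 10 mesenchymal markers summed to 10.8 to 14.2, 78.9 to 115, 90.4 to 113, and 123 to 179 CPM in the same order of populations. The part of these cells in the levels of the members was not tested.
The 10 platelet markers, read because platelets carry Cd36, summed to 2.99 to 5.39 CPM in monocytes and to 189 to 209, 249 to 325, and 298 to 405 CPM in the macrophage subsets. Pf4 and Clec1b made up most of the sum in macrophages. Ppbp was 0.350 to 1.02 CPM in monocytes and 2.15 to 2.45, 1.68 to 2.97, and 1.19 to 3.34 CPM in the subsets. The platelet glycoprotein gene Gp1ba held no read in any macrophage library, and Gp9 held none in Tim-4-CD4- libraries. The 12 epithelial markers summed to at most 2.21 CPM in monocytes and to 13.2 to 36.7 CPM in macrophages. The T cell markers reached 8.15 to 13.1 CPM in Tim-4-CD4+ libraries and at most 0.482 CPM in monocytes. The 8 B and plasma cell markers, mostly Jchain, reached 245 to 439 CPM in macrophages and at most 12.7 CPM in monocytes, and overlapped among the subsets. Of 8 dendritic cell markers 7 were in the table, with sums of 93.0 to 124 CPM in monocytes and 168 to 250 CPM in macrophages. Of 10 neutrophil and eosinophil markers 6 were in the table, with 145 to 214 CPM in monocytes and 6.50 to 17.4 CPM in macrophages. Markers of Ly6Clo monocytes other than Cd36, a blood subset known for high Cd36, summed to 2063 to 2549 CPM in the sorted Ly6Chi monocytes and to 2938 to 3542 CPM in macrophages. Nr4a1, Cx3cr1, and Itgax led this sum in macrophages, at 774 to 1869, 674 to 1102, and 632 to 1156 CPM. The paper found the macrophage subsets themselves to be mostly CX3CR1hi. The part of these cell types in the results was not tested either.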

How the data were processed

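Gene expression was measured by stranded, paired-end mRNA sequencing in 15 libraries. The authors trimmed reads with Trimmomatic 0.36, mapped them with STAR to build GRCm38.p4, and assigned reads with a single location to GENCODE vM11 genes with HTSeq 0.6.1p1. The deposited counts are not normalized, and whether HTSeq used strand is not given in the sources used here. The authors also deposited a signal, the counts divided by 1 size factor per library, which was used only as a check: dividing each count by its signal gave 1 value per library (largest relative deviation 7.09e-10). Groups and replicate numbers came from the sample titles. The lowest total of any gene listed was 16 reads. Symbols, exon lengths, and positions came from GENCODE M21 on GRCm38, which matched 19421 of 19456 identifiers, including all 9 members.

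Counts were analyzed with edgeR 4.0.16 in R 4.3.3. The function filterByExpr, run by population with a minimum of 10 counts at the median library, kept 15802 genes. Libraries were scaled with TMM, and a quasi-likelihood fit with 1 mean per population gave 6 pairwise comparisons, with Benjamini-Hochberg adjustment within each and a threshold of 0.05. The SE was derived from the log2 fold change and its F statistic. The fit was tested on simulated data. Replicates of 1 population are separate pools of mice. The study reports independent sorts of pooled mice, and whether libraries of different subsets share mice is not given. Reads carry no molecular identifiers, so Poisson intervals cover counting error only. Intervals of fold changes are 1.96 SE to each side and include the spread between libraries.

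All 9 members are named. Of each list of other genes, the 3 with the largest change in Tim-4+CD4+ cells against Tim-4-CD4- cells among those called are named. Of some cell type lists, markers among those with the highest CPM or at 0 are named, and the others are given as sums only. The result of 1 gene is not reported here. The members and lists were chosen with earlier results of these data known. Alternatives were DESeq2 1.42.0, which the study used, relative log expression or upper-quartile factors, every gene with a count, genes with a mean of 1 CPM or more, fits of the compared populations alone, thinned counts, a replicate block, and leaving out each library in turn. Figures were drawn with matplotlib 3.10.9.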

Additional observations from a re-analysis of the deposited data

Results flagged for a closer look

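In 27 groups of 4 macrophage libraries (9 genes in 3 subsets), the highest and lowest library of each gene was compared with the nearest of the others by Dixon's ratio, and 2 libraries stood apart past its 95% critical value of 0.829. Chance gives about 1 such group in 20. Cd36 was 106 CPM in Tim-4-CD4+ replicate 1 and 83.1 to 85.9 CPM in the other Tim-4-CD4+ libraries, with a gap of 0.875 of the range. Cd5l was 0.237 CPM in Tim-4-CD4- replicate 3 and 0.0259 to 0.0548 CPM in the other Tim-4-CD4- libraries, with a gap of 0.863 of the range.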

How the results depend on the processing

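Across 1280 values of single genes under the alternatives, 1243 kept their direction and their side of the threshold, 10 passed it where the reported value did not, 16 no longer passed it, and 11 changed sign, none of which was called. For Tim-4+CD4+ cells against Tim-4-CD4+ cells, the count of members called fell from 2 to 1 with a mean of at least 1 CPM, which leaves Marco untested, and ran from 1 to 2 when libraries were left out in turn. The other counts of members called stayed within 1.5 times of the reported value. The log2 value of Cd68 for Tim-4+CD4+ over monocytes turned to 0.023 with upper-quartile factors and ran from -0.14 to 0.070 with libraries left out in turn (positive without monocyte replicate 1), and for Tim-4-CD4+ over Tim-4-CD4- cells from -0.029 to 0.039 (negative without Tim-4-CD4- replicate 2, at -0.014, and Tim-4-CD4+ replicate 3). For Tim-4+CD4+ over Tim-4-CD4+ cells, Msr1 ran from -0.090 to 0.087 (negative without Tim-4-CD4+ replicate 3 and Tim-4+CD4+ replicates 2 and 4) and Scarb2 from -0.059 to 0.028 (positive without Tim-4-CD4+ replicate 4 and Tim-4+CD4+ replicates 1 and 2), with 0.010 under upper-quartile factors. The cause of these changes was not tested. Upper-quartile factors moved the median of all genes by 0.115 for Tim-4+CD4+ cells over monocytes and called Scarb2 for Tim-4-CD4- cells over monocytes (log2 value 0.20, adjusted p = 0.044). DESeq2 called more genes than edgeR for Tim-4+CD4+ cells against Tim-4-CD4+ cells, 917 against 539, and 3 members against 2.

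The replicate numbers of titles and descriptions differ for the Tim-4-CD4+ libraries, and neither pairs the samples. The deviations of same-numbered libraries correlated by -0.123 to 0.134 by title and -0.0888 to 0.161 by description. In the order of the subsets, replicates 1, 4, and 1 correlated by 0.0582 to 0.219, and replicates 2, 3, and 3 by 0.134 to 0.240. Replicates 3, 1, and 2 correlated by 0.135 to 0.173, and replicates 4, 2, and 4 by 0.128 to 0.161. All other pairs ran from -0.140 to 0.0945. These sets were read from the correlations, no label gives them, and whether each shares a sort was not tested. No fit blocked on them, so the tests between subsets leave out any such pairing. With a replicate block by title or by description, 4 members were called for Tim-4-CD4- cells over monocytes by either numbering (5 without a block), because Cd5l was lost (adjusted p = 0.068 and 0.055). For Tim-4-CD4+ cells against Tim-4-CD4- cells 3 and 4 were called, the latter with Cd163 (adjusted p = 0.021). For Tim-4+CD4+ cells against Tim-4-CD4+ cells 2 were called by either, with Colec12 called by description and Marco not (adjusted p = 0.038 and 0.056). The other 3 counts were 8, 7, and 7, as without a block. Depth limits Marco and Cd5l, which hold 4 reads each in monocytes, and thinning to the smallest library lost the call of Cd5l for Tim-4-CD4- cells over monocytes (adjusted p = 0.071).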

Other observations

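Some abundant genes of the list of other scavenger receptors have not yet been described. Stab1, a clearance receptor of resident macrophages, was 3.99 ± 0.560 CPM in monocytes (mean ± SD, n = 3) and 1524 ± 165, 2085 ± 96.1, and 2539 ± 119 CPM in the subsets, in the order of Tim-4-CD4- cells, Tim-4-CD4+ cells, and Tim-4+CD4+ cells (n = 4 each). Mrc1, the mannose receptor, was 21.8 ± 6.98 CPM in monocytes and 1120 ± 23.4, 1185 ± 111, and 1083 ± 234 CPM in the subsets, which were not called against each other. Lrp1, a receptor for lipoproteins and for heme bound to hemopexin, was 1597 ± 73.8 CPM in monocytes and 336 ± 97.6, 297 ± 39.4, and 322 ± 87.6 CPM in the subsets. Cd44, a hyaluronan receptor, was 921 ± 93.0 CPM in monocytes and 536 ± 58.9, 373 ± 41.1, and 276 ± 71.6 CPM in the subsets, with means in the order opposite to Stab1. By edgeR, both CD4+ subsets were called against Tim-4-CD4- cells for Stab1 (adjusted p = 0.0047 and 2.5e-05) and Cd44 (adjusted p = 0.046 and 0.00032). The CD4+ subsets were not called against each other (adjusted p = 0.14 for Stab1 and 0.19 for Cd44). These 4 genes were chosen after their values were seen.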
